A study of Mus musculus with 15 samples.

Results

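Expression in Batf3 KO and WT Zbtb46-GFP+ cells of mouse bone marrow was compared on 6 of the 15 Affymetrix arrays of the study, 3 from each genotype, chosen by sample title. The cells were sorted as c-Kit-intermediate cells that carry GFP expressed from the Zbtb46 locus, from marrow of pelvis, tibia and femurs. The WT cells came from Zbtb46-GFP chimeric mice and the Batf3 KO cells from Batf3 KO Zbtb46-GFP mice that are not labelled as chimeric. The reporter allele was shared by all groups, and the host cannot be told apart from the Batf3 genotype. Also on the arrays were common dendritic cell progenitors (CDPs) of both genotypes, 2 arrays each, and cells of Id2 KO chimeric mice at both stages. No age or strain is given in the labels used here. Nothing in the labels says that the replicates were separate animals, so every p-value below measures only the spread between these arrays, which may be technical.

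Signals are given as log2 of the deposited probe set intensity. Replicate 1 of either group lay on another scale, with median intensities of 23.8 (WT) and 24.0 (Batf3 KO), against 100.8 to 112.1 on the 12 arrays of the common scale. The differences therefore come from replicates 2 and 3, with n = 2 arrays per group throughout, in a limma fit on 12 arrays. The replicate 1 pair was kept apart as a check of direction, in which 14368 of 19190 genes outside the X and Y chromosomes (74.9%) had identical values on both arrays. As a description across genes, Pearson's r was 0.986 between the WT replicates 2 and 3, 0.992 between the Batf3 KO replicates, and 0.904 to 0.914 between replicate 1 arrays and the others. On replicates 2 and 3 the sex-linked genes differed too: Xist was lower by -6.61 in Batf3 KO cells, while on Y Kdm5d was higher by 2.98, Uty by 2.92 and Eif2s3y by 2.95. In the replicate 1 pair these 4 differences were 0.50, 0.00, -0.08 and -0.08. Genes on X and Y were left out of everything that follows, and the part of sex in the other differences was not tested.

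Classical dendritic cells fall into cDC1, which take up dying cells and cross-present their antigens to CD8 T cells, and cDC2, which mainly prime CD4 T cells. Both arise from CDPs through precursors that switch on Zbtb46, a zinc finger repressor of the classical lineage. Batf3 is a basic leucine zipper factor that pairs with Jun proteins at AP-1 sites and works with IRF4 or IRF8 at composite elements in which an AP-1 site lies beside a GAAA motif. Mice without Batf3 are known for the loss of mature cDC1, and the question here was which genes depend on it in the precursors.

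Loss of Batf3 was accompanied by lower expression of cDC1 genes and by higher expression of a mixed set. At an adjusted p under 0.05 (limma, Benjamini-Hochberg over 19938 genes), 60 of 19190 genes outside X and Y were called, or 0.313% of those tested, and 839 had an unadjusted p under 0.05. Of the called genes, 42 were lower in Batf3 KO cells (0.219%) and 18 were higher (0.0938%). The median difference was -1.61 over the lower genes and 1.38 over the higher ones, against 0.01 over all genes. More than 4-fold changes were found in both directions: 12 genes fell and 3 genes rose by that much. The split rested on single arrays: it was 15 lower and 20 higher without Batf3 KO replicate 3, 26 and 25 without WT replicate 3, 21 and 7 without Batf3 KO replicate 2, and 69 and 16 without WT replicate 2. The largest decreases were in Gpr141b, Rasgrp3, Gcsam, Cd36, Xcr1 and Snx22, and the largest increase was in the prostaglandin-degrading enzyme Hpgd.

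**Figure D1:**
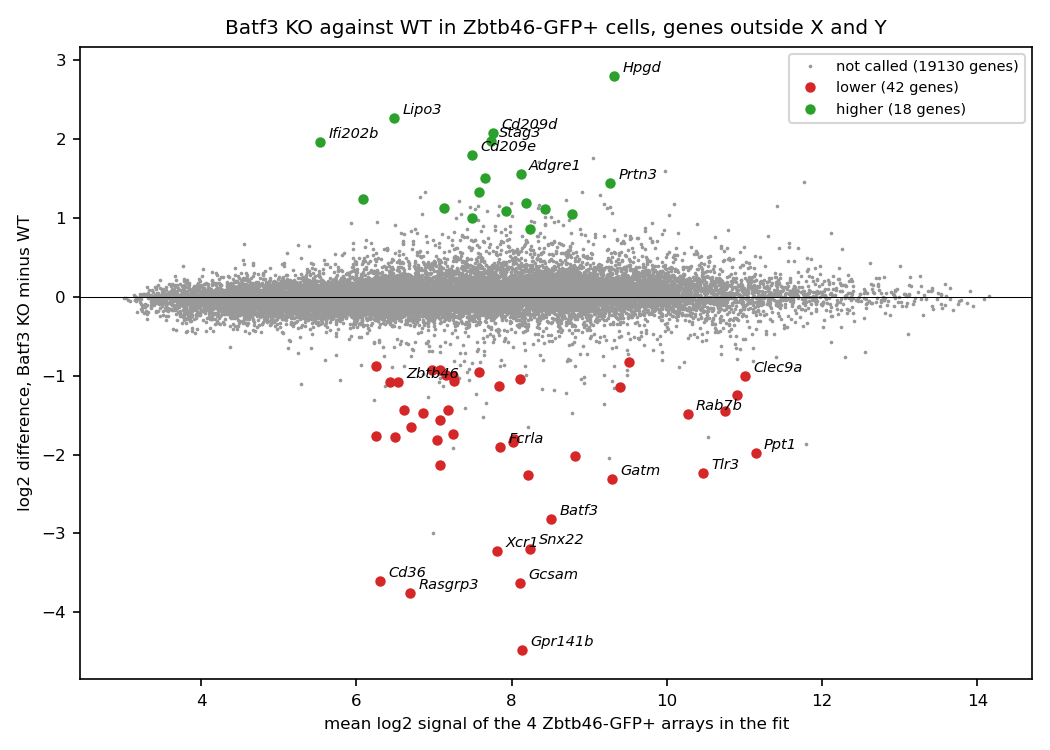
Log2 difference of Batf3 KO minus WT (vertical axis) against the mean log2 signal of the 4 Zbtb46-GFP+ arrays in the fit (horizontal axis), 1 point per gene outside X and Y. Red points are the 42 genes called lower and green points the 18 called higher; the lower genes reach -4.48 and the higher genes 2.81, and the grey points are the genes not called.

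The promoters of 5 of the lower genes are shown because the genes fell together and Batf3 acts at AP-1 sites. They are Xcr1 and Tlr3, which define cDC1, and the 3 lower genes whose promoter held TGANTCA, a loose form of the AP-1 consensus. Its central base may be any, and it was C in Zbtb46, A in P2ry14 and T in Ifi203. Capitals mark this loose motif, which reads the same on both strands, with an adjoining GAAA on either strand where there is one. Each promoter is the 150 bases before a RefSeq transcription start (mouse GRCm38.p6), 5′ to 3′ on the gene's strand. They lie at chr9:123862030-123862179 (Xcr1, minus strand), chr8:45410381-45410530 (Tlr3, minus strand), chr2:181424389-181424538 (Zbtb46, minus strand), chr3:59131329-59131478 (P2ry14, minus strand, 1 of 4 starts) and chr1:173942673-173942822 (Ifi203, minus strand, 1 of 2 starts).
Xcr1: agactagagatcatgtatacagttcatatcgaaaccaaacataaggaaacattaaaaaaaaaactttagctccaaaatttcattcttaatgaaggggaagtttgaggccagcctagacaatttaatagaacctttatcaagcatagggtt
Tlr3: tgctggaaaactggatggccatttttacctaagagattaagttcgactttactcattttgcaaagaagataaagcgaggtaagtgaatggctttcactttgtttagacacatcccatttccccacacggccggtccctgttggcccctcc
Zbtb46: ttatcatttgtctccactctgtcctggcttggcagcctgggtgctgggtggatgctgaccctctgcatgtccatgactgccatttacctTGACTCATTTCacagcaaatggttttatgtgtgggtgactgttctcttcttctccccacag
P2ry14: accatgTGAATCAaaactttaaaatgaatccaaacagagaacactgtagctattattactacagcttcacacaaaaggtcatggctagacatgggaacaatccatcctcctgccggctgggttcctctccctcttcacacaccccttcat
Ifi203: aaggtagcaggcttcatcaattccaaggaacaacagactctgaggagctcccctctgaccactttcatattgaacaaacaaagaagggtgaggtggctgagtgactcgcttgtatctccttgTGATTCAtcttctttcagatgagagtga
Within 250 bases before the start, 3 of the 35 lower genes with a promoter in the table held the loose motif (8.57%). It was held by 1068 of 15010 genes tested (7.12%) and by 0 of 16 higher genes. A composite form, GAAA directly adjoining the loose motif, was found in Zbtb46 alone among the lower genes, 61 bases before its start. This form was found in 19 of the 15010 genes (0.127%). Composite forms with bases between the parts were not searched. The share of lower genes with the loose motif was close to that of all genes. Sequence beyond this window was not searched.

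Batf3 itself checks the labels. Its log2 signal was 9.99 and 9.85 in WT replicates 2 and 3 and 6.89 and 7.32 in Batf3 KO, a difference of -2.82 ± 0.18 (SE, adjusted p = 2.12e-05). In the replicate 1 pair it was 7.20 in WT and 6.05 in Batf3 KO. Every Batf3 KO array was thus below its WT counterparts. In CDPs Batf3 averaged 7.14 in WT and 7.11 in Batf3 KO, so the WT signal rose by 2.79 from CDP to Zbtb46-GFP+ cells while the Batf3 KO mean was 7.10 in Zbtb46-GFP+ cells. Where the probes lie relative to the deleted part of the gene is not given in the sources used here.

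Among surface receptors, the largest decrease was in Gpr141b, an orphan G protein-coupled receptor. Its log2 signal was 9.81 and 10.94 in WT and 5.90 and 5.88 in Batf3 KO (-4.48 ± 0.30 SE, adjusted p = 3.03e-05), and 8.33 against 4.77 in the replicate 1 pair. The WT arrays lay far above the Batf3 KO arrays in all 3 replicates. Xcr1, the receptor for the chemokine XCL1 made by T and NK cells and a defining marker of cDC1, was at 8.99 and 9.86 in WT and 5.88 and 6.51 in Batf3 KO (-3.23 ± 0.30 SE, adjusted p = 0.000387). Its replicate 1 pair read 6.02 and 4.29. Cd36, a scavenger receptor for lipids and dying cells, was at 7.78 and 8.44 in WT and 4.47 and 4.53 in Batf3 KO (-3.61 ± 0.22 SE, adjusted p = 1.39e-05), and 5.49 against 3.01 in replicate 1. The groups did not overlap for any of these 3 receptors, or for any of the 42 lower genes, as was so for 10.6% of all genes in this direction. These genes were called on the same arrays, so the lack of overlap describes them and tests nothing.

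Clec9a, through which cDC1 sense the actin of dead cells, fell less. It read 11.37 and 11.66 in WT and 10.49 and 10.52 in Batf3 KO (-1.01 ± 0.14 SE, adjusted p = 0.0096), with 9.65 against 8.43 in replicate 1. Clec9a was thus lower in each Batf3 KO array and still 10.51 on average, above the 9.91 of Batf3 KO CDPs. Its call held in 1 of the 4 fits that left out an array, with an adjusted p of up to 0.129. P2ry14, a receptor for UDP-sugars, read 8.89 and 9.79 in WT and 7.20 and 6.96 in Batf3 KO (-2.26 ± 0.28 SE, adjusted p = 0.00392), while its replicate 1 values were identical at 6.20. Fzd1, a Wnt receptor, Gpr33, an orphan chemoattractant-like receptor, and Ptger2, a receptor for prostaglandin E2, fell by 1.73, 1.65 and 0.95. The integrin subunits Itga8 and Itgae (CD103, which marks tissue and migratory cDC1) fell by 1.44 and 0.88.

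Tlr3, the endosomal sensor of double-stranded RNA that cDC1 express strongly, was at 11.56 and 11.59 in WT and 9.21 and 9.48 in Batf3 KO (-2.23 ± 0.14 SE, adjusted p = 1.39e-05). The replicate 1 pair read 9.79 and 8.42. The WT arrays were nearly equal and both Batf3 KO arrays lay more than 4-fold below them on average. Tlr3 was also much above the CDP level in the knockout: its mean was 5.47 in WT CDPs, 5.56 in Batf3 KO CDPs, 11.58 in WT Zbtb46-GFP+ cells and 9.34 in Batf3 KO Zbtb46-GFP+ cells.

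Of the lower genes that encode signalling proteins inside the cell, Rasgrp3, an exchange factor for Ras and Rap, read 8.23 and 8.91 in WT and 4.70 and 4.93 in Batf3 KO (-3.75 ± 0.22 SE, adjusted p = 1.39e-05), and 5.70 against 4.49 in replicate 1. Gcsam, an adaptor first described in germinal centre B cells, read 9.70 and 10.14 in WT and 6.24 and 6.34 in Batf3 KO (-3.63 ± 0.21 SE, adjusted p = 1.39e-05), and 6.53 against 4.38 in replicate 1. For both genes the Batf3 KO arrays of replicates 2 and 3 were close to each other and more than 12-fold below the WT mean. Fgd6 fell by 2.14 ± 0.19 (SE) and Clnk, an adaptor of the SLP-76 family, by 1.57 ± 0.17 (SE). Ipcef1, which binds a cytohesin exchange factor, fell by 1.04, and the phosphatase Ppef2 by 1.47.

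Among the lower genes whose products act on intracellular membranes, Snx22, a sorting nexin that binds membrane lipids, read 9.50 and 10.17 in WT and 6.47 and 6.82 in Batf3 KO, a decrease of 3.19 ± 0.21 (SE), while its replicate 1 pair read 4.28 and 4.17. Ppt1, a lysosomal enzyme that removes palmitate from proteins, read 11.89 and 12.37 in WT and 10.24 and 10.07 in Batf3 KO (-1.98 ± 0.16 SE), and 9.52 against 8.24 in replicate 1. Rab7b, a small GTPase of late endosomes, read 10.93 and 11.09 in WT and 9.50 and 9.55 in Batf3 KO (-1.49 ± 0.21 SE). All 3 had Batf3 KO arrays wholly below the WT arrays on replicates 2 and 3. Fcrla, an Fc receptor-like protein kept inside the cell, was at 8.57 and 9.04 in WT and 7.04 and 6.77 in Batf3 KO (-1.90 ± 0.17 SE, adjusted p = 0.000352).

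The lower genes also held enzymes and a transporter. Gatm makes the precursor of creatine. It read 10.47 and 10.41 in WT and 8.37 and 7.90 in Batf3 KO (-2.31 ± 0.16 SE, adjusted p = 4.30e-05), and 6.72 against 5.25 in replicate 1. Gatm was lower in Batf3 KO Zbtb46-GFP+ cells than in the CDPs of that genotype (8.14 against 8.67), whereas WT rose from 9.29 to 10.44. The phospholipid phosphatase Plpp1 fell by 1.81, the acyltransferase Agpat3 by 1.13, the collagen prolyl hydroxylase P3h2 by 1.85 and the amino acid transporter Slc7a8 by 1.44. Of the lower genes with products tied to the cytoskeleton or the cell membrane, Septin3 fell by 1.80, the beta-tubulin Tubb2a by 1.44, shootin (Shtn1) by 1.14, myoferlin (Myof) by 1.08, the podosome adaptor Sh3pxd2b by 1.07 and the actin-binding protein Lima1 by 0.99. Of 7 further lower genes, BC028528 (-2.02), 1700009J07Rik (-1.78), Gramd2 (-1.77), Phf11c (-1.01), Ocstamp (-0.92), Fam149a (-0.92) and the kinase Vrk2 (-0.82), BC028528 also differed by -2.03 in the replicate 1 pair.

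**Figure D2:**
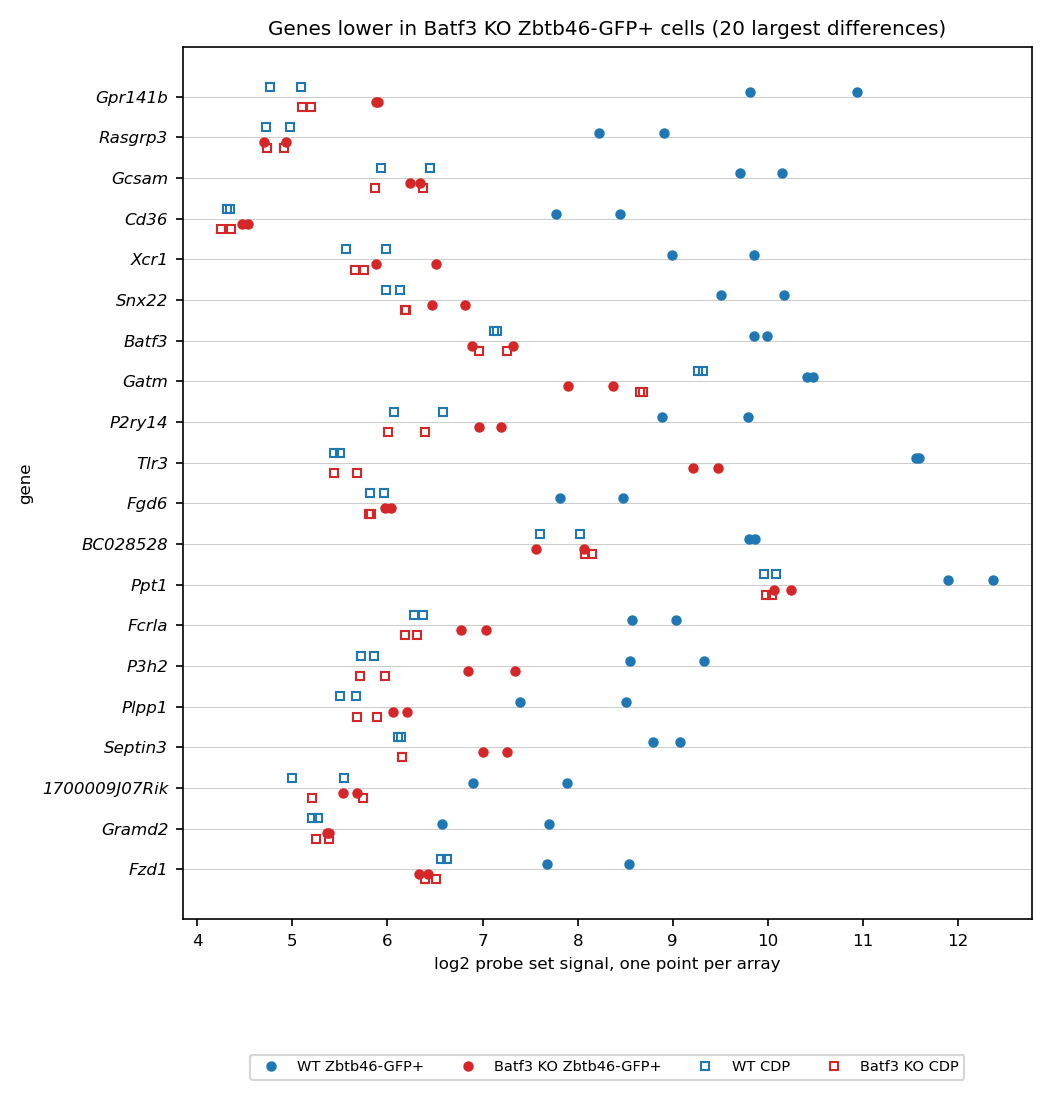
Log2 probe set signal (horizontal axis) of the 20 lower genes with the largest difference (vertical axis), 1 point per array: filled circles are Zbtb46-GFP+ replicates 2 and 3 and open squares CDP replicates 1 and 2, WT in blue and Batf3 KO in red. The blue circles lie to the right of the red circles for every gene, and the red circles of Rasgrp3, Gcsam and Cd36 lie beside the squares.

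Zbtb46, whose locus drives the reporter used for the sort, was lower as well. Its signal was 7.18 and 6.99 in WT and 6.01 and 5.996 in Batf3 KO (-1.08 ± 0.14 SE, adjusted p = 0.00713), and its replicate 1 values were identical at 5.19. The call was lost without Batf3 KO replicate 2 (adjusted p = 0.0896) or 3 (0.0758), with only the arrays compared (0.0646), after 75th percentile centring (0.0691) and with all 15 arrays and a term for replicate 1 (0.379). The other regulators did not pass the test. Irf8, the factor that specifies cDC1, was at 12.76 and 12.997 in WT and 12.82 and 12.83 in Batf3 KO (-0.05 ± 0.15 SE), and Id2 and Id3, inhibitors of E proteins, differed by -0.38 and -0.58. Nfil3 differed by 0.34, Irf4, which acts in cDC2, by 1.02 (adjusted p = 0.612), and Zeb2, a repressor of the cDC1 fate, by 0.98 (adjusted p = 0.444). Tcf4 and Spib, factors of plasmacytoid dendritic cells (pDCs), differed by 0.58 and 0.64. The growth factor receptors Kit, Flt3 and Csf1r, which are used to define the progenitors, differed by 0.03, -0.10 and 0.68. For Irf4 the arrays did not overlap (7.41 and 8.59 against 9.28 and 8.76), with WT replicate 3 close to Batf3 KO replicate 3. Several of these differences moved with the WT array left out. Without WT replicate 3 they were 1.605 for Irf4, 1.485 for Zeb2 and -0.110 for Id3. Without WT replicate 2 they were 0.429, 0.471 and -1.048.

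The lower genes were largely those that WT cells gain after the CDP stage. All 42, Batf3 among them, were higher in WT Zbtb46-GFP+ cells than in WT CDPs, with median log2 signals of 8.48 and 6.16. The share of all genes that rose in this way is not given here. In Batf3 KO Zbtb46-GFP+ cells, 21 of them lay within 0.5 of the WT CDP mean, against 84.9% of all genes. Their medians were 6.14 in Batf3 KO CDPs and 6.65 in Batf3 KO Zbtb46-GFP+ cells. In 36 of the 42 the WT rise exceeded 1, and for these the Batf3 KO rise was a median of 14.04% of the WT rise on the log2 scale. It was under 25% for 23 genes, from 25% to 50% for 10, and over 50% for 3. Rasgrp3 did not rise in Batf3 KO (-0.27% of the WT rise), and Gcsam, Cd36 and Ppt1 rose by 4.50%, 5.27% and 6.74% of it. Clec9a and Rab7b rose by 34.5% and 47.3%. Ipcef1 (60.5%), Tlr3 (62.0%) and Shtn1 (64.7%) were the 3 that kept most of their rise. Because the genes were chosen for being lower in Batf3 KO than in WT Zbtb46-GFP+ cells, these counts and shares describe them and test nothing.

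The 18 higher genes came from several functions. Hpgd, which inactivates prostaglandin E2, had the largest increase: 7.89 and 7.95 in WT against 10.82 and 10.63 in Batf3 KO (2.81 ± 0.25 SE, adjusted p = 0.000286), and 5.29 against 6.29 in replicate 1. The 2 WT arrays were nearly equal and both Batf3 KO arrays stood well above them. Lectin-like receptors followed. Cd209d, a C-type lectin of the DC-SIGN family, read 6.58 and 6.87 in WT and 9.22 and 8.38 in Batf3 KO (2.07 ± 0.35 SE, adjusted p = 0.0341), and 5.39 against 5.75 in replicate 1. Its relative Cd209e read 6.64 and 6.53 in WT and 8.59 and 8.18 in Batf3 KO (1.80 ± 0.17 SE, adjusted p = 0.000512), with identical values of 4.64 in the replicate 1 pair. Klrb1f, of the NKR-P1 lectin family, rose by 1.33 ± 0.15 (SE), and the microbial glycan-binding lectin Itln1 by 1.24 ± 0.13 (SE).

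Several other higher genes are known from macrophages, granulocytes and progenitors. Adgre1, the macrophage antigen F4/80, read 7.17 and 7.50 in WT and 9.23 and 8.57 in Batf3 KO (1.56 ± 0.24 SE, adjusted p = 0.0181), and 4.61 against 5.83 in replicate 1. Prtn3, a serine protease of granulocyte precursors, read 8.97 and 8.13 in WT and 9.94 and 10.04 in Batf3 KO (1.44 ± 0.22 SE, adjusted p = 0.0181), with identical values in the replicate 1 pair. Cd93, found on early progenitors, rose by 1.19, the granulocyte colony-stimulating factor receptor Csf3r by 1.11, the coagulation factor gene F13a1 by 1.09 and Igfbp4, which binds insulin-like growth factors, by 1.00. Of these, Prtn3, Cd93, F13a1 and Igfbp4 had their highest signals in CDPs, with WT CDP means of 12.52, 11.63, 11.51 and 10.82, and the Batf3 KO Zbtb46-GFP+ means lay between those and the WT Zbtb46-GFP+ means. Tnfsf8, the ligand of CD30, rose by 1.13, Stxbp6, which binds SNARE proteins, by 1.05, and the receptor tyrosine kinase Axl by 0.86.

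Lipo3, a lipase family member, Ifi202b, of the interferon-inducible p200 family, Stag3, a cohesin subunit of meiosis, and the olfactory receptor Olfr432 had the largest CDP differences of the 18 genes. Itln1 came next, higher by 0.72 in Batf3 KO CDPs, where it did not pass the test (adjusted p = 0.251). Lipo3 read 5.46 and 5.24 in WT and 7.77 and 7.47 in Batf3 KO (2.27 ± 0.19 SE), 3.83 against 6.11 in replicate 1, and was higher by 2.86 in Batf3 KO CDPs as well. Ifi202b read 4.58 and 4.52 in WT and 6.72 and 6.31 in Batf3 KO (1.96 ± 0.16 SE), 2.58 against 4.43 in replicate 1, and was higher by 1.94 in CDPs. Stag3 was higher by 1.98 in Zbtb46-GFP+ cells and by 1.62 in CDPs, where it did not pass the test (adjusted p = 0.116), and Olfr432 by 1.51 and 2.07. Lipo3, Ifi202b and Olfr432 were thus called at both stages, and their arrays did not overlap at either. All 18 higher genes had non-overlapping arrays in Zbtb46-GFP+ cells, as had 13.7% of all genes in this direction. They were called on those arrays, so this too describes them and tests nothing.

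**Figure D3:**
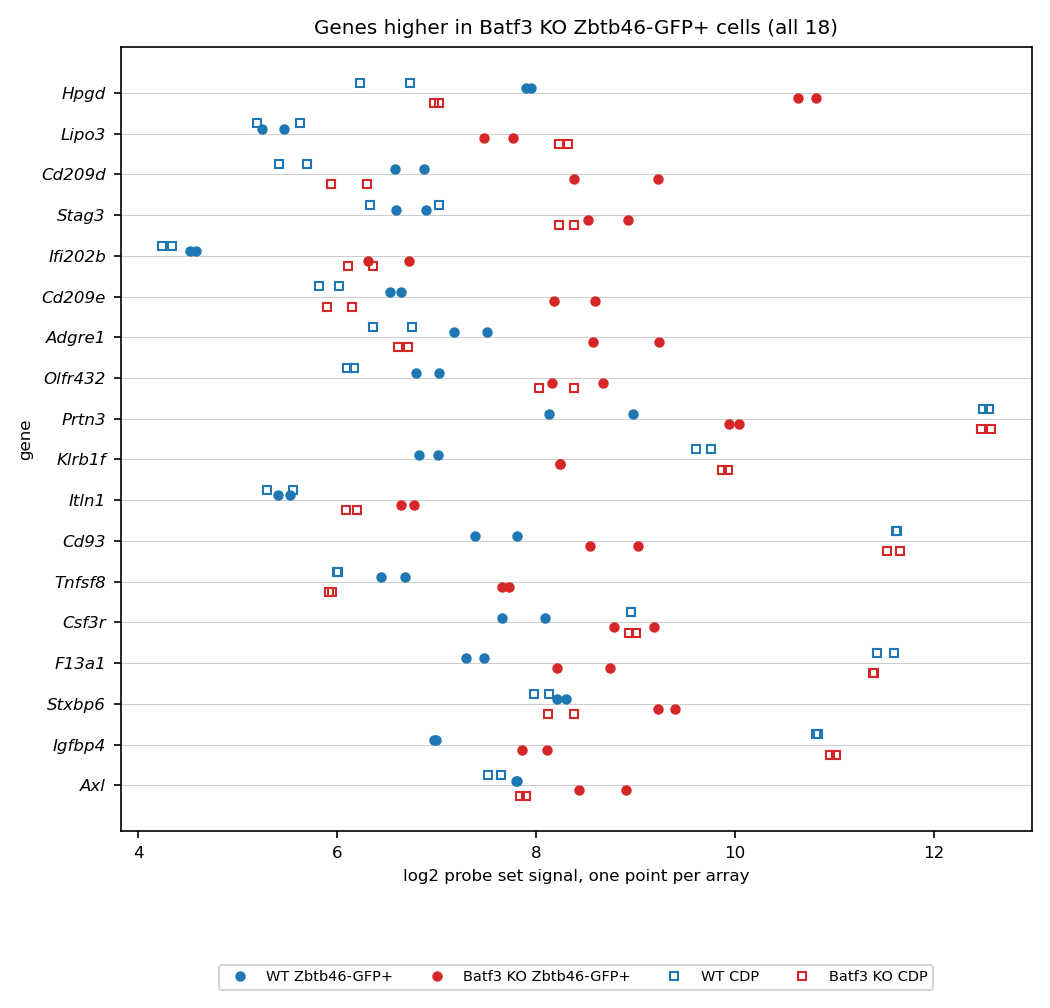
Log2 probe set signal (horizontal axis) of all 18 higher genes (vertical axis), 1 point per array: filled circles are Zbtb46-GFP+ replicates 2 and 3 and open squares CDP replicates 1 and 2, WT in blue and Batf3 KO in red. The red circles lie to the right of the blue ones throughout, and the red squares lie wholly to the right of the blue squares for 10 of the 18 genes, among them the 3 called in CDPs (Lipo3, Ifi202b and Olfr432).

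CDPs were compared on 4 other arrays, which enter the same fit and share its estimate of the spread. In CDPs 5 of 19190 genes were called (0.0261%) in this comparison, and 242 had an unadjusted p under 0.05. Lipo3, Ifi205 (2.33), Olfr432 and Ifi202b were higher in Batf3 KO CDPs (4 genes, 0.0208%), and Gja1, a gap junction protein, was lower by -1.04 (1 gene, 0.00521%). None of the 42 lower genes was among them, and 4 of the 42 had an unadjusted p under 0.05. The median CDP difference of the lower genes was 0.02.

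Whether the difference in Zbtb46-GFP+ cells departed from that in CDPs was tested as an interaction, which shares the Zbtb46-GFP+ arrays with the comparison above. It was called for 19 genes (0.099%), 16 of them more negative in Zbtb46-GFP+ cells (0.0834%) and 3 more positive (0.0156%). These included 15 of the 42 lower genes, among them Gpr141b (-4.71), Rasgrp3 (-3.73), Cd36 (-3.58), Gcsam (-3.57) and Snx22 (-3.33), and 3 of the 18 higher genes: Hpgd (2.29), Cd209e (1.69) and Tnfsf8 (1.20). Clec9a, Zbtb46 and Rab7b did not pass this test (-1.13, -0.93 and -1.54, adjusted p = 0.121, 0.332 and 0.21). The remaining called gene was Ifi205, an interferon-inducible p200 member, which went in opposite directions: it was higher by 2.33 in Batf3 KO CDPs (adjusted p = 0.00649) and lower by -0.58 in Zbtb46-GFP+ cells, where it did not pass the test (interaction -2.90 ± 0.38 SE).

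**Figure D4:**
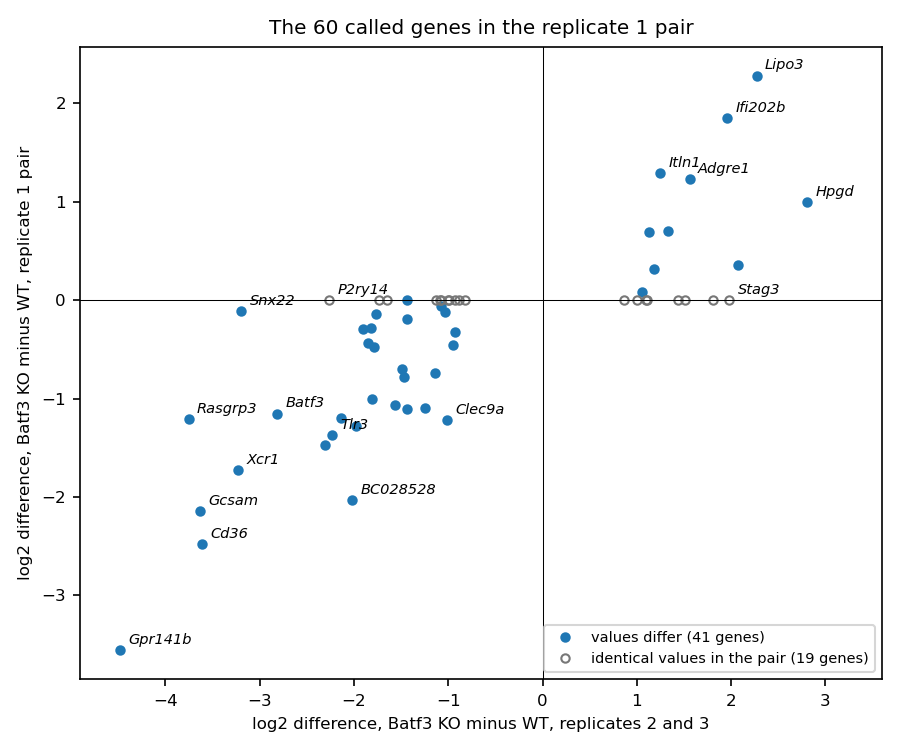
Log2 difference of Batf3 KO minus WT in the replicate 1 pair (vertical axis) against that of replicates 2 and 3 (horizontal axis), 1 point per called gene. Filled points are the 41 genes whose values differed in the pair, which lie in the lower left and upper right except for Slc7a8 (0.004); open points on the zero line are the 19 genes with identical values.

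The replicate 1 pair, which had no part in the calls and has no test, pointed the same way where it differed at all. Of the 42 lower genes, 30 were lower in the Batf3 KO array, 11 were identical and Slc7a8 was higher by 0.004. Of the 18 higher genes, 10 were higher, 8 were identical and 0 were lower. Differences beyond 1 were seen for 16 of the lower and 4 of the higher genes, against 78 of 19190 genes (0.406%). Over the 4822 genes whose values differed in the pair, the direction matched that of replicates 2 and 3 in 55.8%. The largest were in Gpr141b (-3.56), Cd36 (-2.48), Lipo3 (2.28), Gcsam (-2.14) and BC028528 (-2.03).

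Among lists of genes for cell types and functions, the cDC1 list held the most called members. This list was chosen with earlier results of these data known. It includes the largest decreases above (Gpr141b, Rasgrp3, Gcsam, Cd36, Xcr1 and Snx22) and Zbtb46, so its counts and median describe it and test nothing. Of its 31 measured members, Batf3 left aside, 16 were called lower, 0 were called higher (0 also had an unadjusted p under 0.05 in that direction), and 28 were below 0, with a median of -1.08 against 0.01 over all genes. In the replicate 1 pair, 21 of the 23 members whose values differed were below 0. Members that did not pass included Slamf8 (-2.05, adjusted p = 0.106) and Naaa, a lysosomal amidase (-1.86, adjusted p = 0.103). Cadm1, an adhesion molecule of cDC1 (-1.02, adjusted p = 0.0879), and Wdfy4, which is needed for cross-presentation (-0.76, adjusted p = 0.083), were also among them. Further members did not pass either, among them the 3 that were above 0. For Wdfy4 the adjusted p was 0.3445 with all 15 arrays and a term for replicate 1, and 0.0169 with a block for the array set. That set was defined from the signals, as the array with the higher or lower 75th percentile within each group. The summed intensity of the list was 58342 and 64887 on the WT arrays and 31747 and 35502 on the Batf3 KO arrays. In bulk samples of this kind, fewer cells of a type and less RNA per cell cannot be told apart.

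Genes of the other dendritic cell types leaned the opposite way, mostly below the threshold. For these and the lists below, the background over all genes was a median of 0.01, with 4.37% at an unadjusted p under 0.05 in either direction. The share of all genes above 0, on replicates 2 and 3 or in the replicate 1 pair, is not given here. Of 29 cDC2 genes, 2 were called higher (Cd209d and Cd209e) and 0 lower (0 unadjusted), with a median of 0.41, and 14 of the 16 members that differed in the replicate 1 pair were above 0. The summed intensity of the cDC2 list was 22897 and 29744 in WT and 38242 and 33827 in Batf3 KO. Cd209a, which marks cDC2 and their precursors, read 10.49 and 11.58 in WT and 12.56 and 12.42 in Batf3 KO (1.45, adjusted p = 0.188), and 6.80 against 7.50 in replicate 1. Of other cDC2 markers, Itgam (0.93) had arrays that did not overlap, whereas Clec4a4 differed by -0.32. For Sirpa (0.65), Clec10a (1.29) and Mgl2 (1.21), WT replicate 3 lay above Batf3 KO replicate 3. None of these markers was called. Of 21 pDC genes 0 were called by limma (9 higher and 0 lower with an unadjusted p under 0.05), and 20 were above 0 with a median of 0.51. In the replicate 1 pair all 8 members that differed were above 0. Smim5 and Ly6d had the largest differences at 1.15 each (adjusted p = 0.435 and 0.661). Both were called with the array set as a block (adjusted p = 0.0226 and 0.00305), a setting that raised all calls from 60 to 235. With all 15 arrays and a term for replicate 1 they were not called (adjusted p = 0.9999 each). The pDC genes leaned the same way in CDPs, where their median difference was 0.39 with 0 called. Smim5 and Ly6d differed by 1.00 and 1.08 there. The summed pDC signal was 13723 and 18360 in WT and 23539 and 18439 in Batf3 KO, so Batf3 KO replicate 3 was level with WT replicate 3.

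Of the progenitor genes, 4 of 25 were called higher (Prtn3, Cd93, F13a1 and Igfbp4), 0 lower (0 unadjusted), with a median of 0.41. The replicate 1 pair went the other way, with 6 of the 8 members that differed below 0. Neutrophil and granule markers had 2 of 20 called higher (Prtn3 and Csf3r), 0 lower (0 unadjusted), and a median of 0.49, and 9 of the 13 members that differed in the replicate 1 pair were above 0. Mpo, the main peroxidase of granulocyte precursors, read 9.46 and 6.87 in WT and 9.80 and 10.05 in Batf3 KO (1.76, adjusted p = 0.62), and Elane 7.85 and 7.13 against 8.97 and 9.43 (1.71, adjusted p = 0.0809). The mature neutrophil genes S100a8, S100a9 and Ngp were detected in all 4 arrays and differed by 0.62, 0.48 and 0.43, none called. The summed neutrophil signal was 20597 and 21991 in WT and 38210 and 27563 in Batf3 KO.

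Monocyte and macrophage markers had 2 of 18 called higher (Adgre1 and F13a1), 0 lower (2 unadjusted), and a median of -0.01, with summed intensities of 9166 and 9768 in WT and 11259 and 9789 in Batf3 KO. B-lineage markers had Fcrla lower and 0 of 17 higher (5 unadjusted), with a median of 0.12. The T, NK and innate lymphoid (17 genes), erythroid and megakaryocyte (10), and basophil, eosinophil and mast cell (14) lists had 0 called by limma, with 2, 1 and 1 members at an unadjusted p under 0.05. The B-cell genes Cd79a and Pax5, the T and NK genes Cd3e, Ncr1 and Klrb1c and the erythroid factor Klf1 differed by at most 0.39 (Ncr1). The lymphoid genes Il2rb and Tbx21 had the largest differences of their list (0.44 and 0.41), and the erythroid genes Slc4a1 and Car1 those of theirs (-0.49 and -0.37). In the basophil, eosinophil and mast cell list 12 of 14 members were above 0, and 3 of the 4 that differed in the replicate 1 pair were below 0. Prg2, the eosinophil major basic protein, read 6.33 and 6.10 in WT and 8.83 and 6.26 in Batf3 KO (1.33, adjusted p = 1.00), so that Batf3 KO replicate 2 was high alone. Csf2rb2, a receptor chain for IL-3, differed by 0.85 (adjusted p = 0.57). Its adjusted p was 0.0461 with the array set as a block and 0.42 with all 15 arrays and a term for replicate 1. The part of other cells in the higher genes was not tested.

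In the lists for antigen presentation, sensing and migration, few members were called. MHC class II genes (13 measured) and class I and cross-presentation genes (21) had 0 called by limma in either direction, with 2 and 4 members at an unadjusted p under 0.05, and medians of -0.09 and -0.11. Lgmn (0.63) and Ciita (-0.51) had the largest differences of the first list, and Wdfy4 and Rab43 (-0.70) those of the second. Uptake and scavenger receptors had Cd36 and Clec9a lower and Axl higher of 26, with a median of 0.01. Tlr3 was the only called gene of 13 Toll-like receptor genes and Xcr1 the only one of 16 chemokine receptor genes. Costimulation and checkpoint genes had 0 of 20 called (3 higher and 3 lower unadjusted), and their largest differences were in Havcr2 (TIM-3, -1.64, adjusted p = 0.32) and Cd86 (-1.36, adjusted p = 0.137). Both were called with the array set as a block (adjusted p = 0.015 and 0.000118). Neither was called with all 15 arrays and a term for replicate 1 (adjusted p = 0.9999 and 0.6449). Among creatine, lipid and phospholipid genes, Gatm, Ppt1, Cd36 and Plpp1 were lower and Lipo3 higher of 21. In prostaglandin and leukotriene metabolism, the degrading enzyme Hpgd rose and the receptor Ptger2 fell, and the other 21 of 23 members were not called.

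Partners and relatives of Batf3 did not pass the test: 0 of 26 AP-1 and other bZIP genes were called by limma (2 unadjusted), with a median of 0.10, and 0 of 8 interferon regulatory factors (2 unadjusted), with a median of 0.04. The bZIP genes Cebpd and Atf3 differed by 0.50 and 0.48, and Irf5 by -0.35. Zbtb46 was the only called gene of 34 dendritic cell transcription factors. Interferon-stimulated genes had 0 of 20 called (9 higher and 0 lower unadjusted), but 19 were above 0, the median was 0.45, and in the replicate 1 pair all 16 members whose values differed were above 0. Rsad2 (viperin) read 7.76 and 7.78 in WT and 9.34 and 8.52 in Batf3 KO (1.16, adjusted p = 0.188), and Oasl2 8.08 and 9.12 against 10.21 and 9.34 (1.18, adjusted p = 0.643). The summed intensity of this list was 8598 and 11205 in WT and 16352 and 10961 in Batf3 KO, so Batf3 KO replicate 2 was the high array and replicate 3 lay within the WT values. Cell division (25 genes), survival and death (15) and immediate early and stress genes (18) had 0 called by limma, with 3, 0 and 1 members at an unadjusted p under 0.05. Of the cell division genes 23 were above 0, whereas all 9 that differed in the replicate 1 pair were below 0. The largest differences of these lists were in Mcm2 (0.54) and Cdc20 (0.42), in Bmf (0.37) and Cflar (0.32), and in Atf3 and Gadd45b (0.36), none called.

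**Figure D5:**
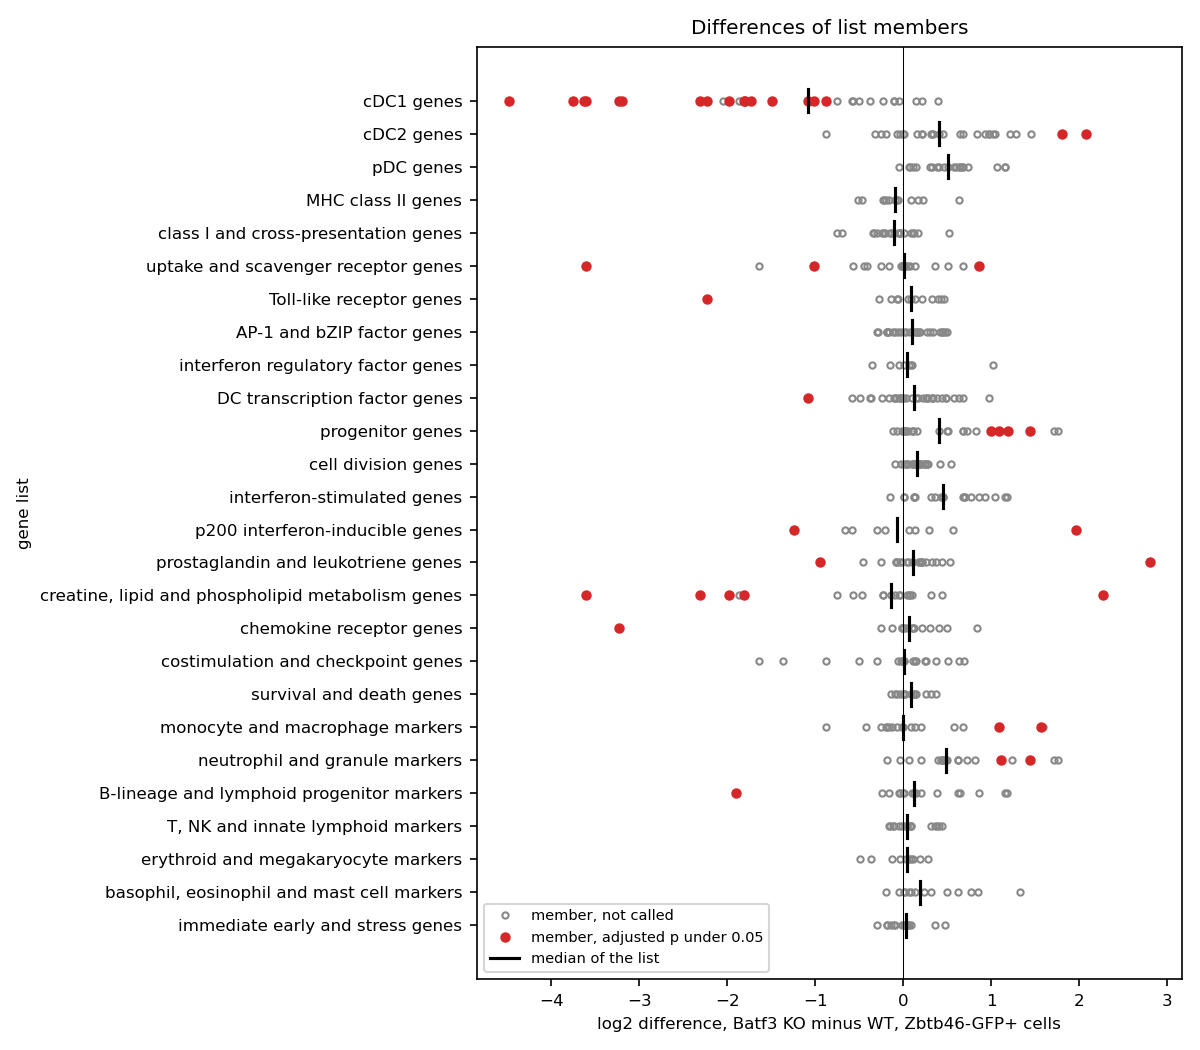
Log2 difference of Batf3 KO minus WT in Zbtb46-GFP+ cells (horizontal axis) for the measured members of 26 gene lists (vertical axis). The lists were chosen with earlier results of these data known. Open circles are members not called, red points members with an adjusted p under 0.05, and the bar is the list's median; the cDC1 list has 16 red points, all below 0, and a median of -1.08.

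Of the 1122 genes measured on chromosome 1, which carries Batf3, 7 were called (0.624%, against 0.313% of all genes): Batf3, Fcrla, Rab7b and Ifi203 lower, and Ifi202b, Olfr432 and Itln1 higher. Batf3 itself is counted among the 7. On the other autosomes the share ran from 0% (chromosome 18) to 0.546% (chromosome 13), with 0.533% on chromosome 10 and 0.524% on chromosome 8. Ifi203, a p200 family gene, read 11.75 and 11.29 in WT and 10.28 and 10.28 in Batf3 KO (-1.24 ± 0.16 SE, adjusted p = 0.00646). Of the 10 p200 family genes measured, Ifi203 was called lower and Ifi202b higher, and Aim2, a DNA sensor of the same family, differed by 0.06. In gene order Olfr432, Ifi205, Ifi202b and Ifi203 lay 118 to 122 measured genes from Batf3, Itln1 169, Fcrla 195 and Rab7b 455. Among the 50 measured genes nearest to Batf3, 25 on each side, 0 were called at either stage by limma and 5 (10.0%, against 4.37% of all genes) had an unadjusted p under 0.05 in Zbtb46-GFP+ cells, with differences from -0.34 (Mir215) to 0.64 (Hsd11b1).

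Id2 KO Zbtb46-GFP+ cells, replicates 2 and 3, are set beside because they came from chimeric mice as the WT did and share the WT arrays, so the 2 differences from WT are not independent. On these arrays Xist averaged 5.57 and Kdm5d 8.61, near the Batf3 KO means (5.49 and 8.64) and away from WT (12.10 and 5.66), so that sex-linked genes set both knockouts apart from WT. The 42 lower genes had a median difference from WT of -1.61 with Batf3 lost and -1.60 with Id2 lost, and the 18 higher genes of 1.38 and 0.45. Tested directly, Id2 KO differed from Batf3 KO in 115 of 19190 genes (0.599%), 64 of them lower in Id2 KO (0.334%) and 51 higher (0.266%). They included 6 of the 42 lower genes and 12 of the 18 higher ones. These genes were chosen on the same Batf3 KO arrays, so the counts describe them and show nothing particular to them. Fcrla averaged 6.90 without Batf3 and 9.14 without Id2, Clnk 6.29 and 7.73, and Ifi203 10.28 and 11.37, so the Id2 KO means of these 3 lay nearer to the WT means (8.80, 7.86 and 11.52). Batf3 was higher in Id2 KO (8.29), and Tlr3 and Rab7b were lower there (7.79 and 8.24). Hpgd averaged 10.72 without Batf3 and 8.02 without Id2, the latter close to the 7.92 of WT.

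The call of a gene depended on single arrays for part of the list. The called genes had non-overlapping arrays, so leaving out 1 array could not change a sign. Of the 42 called genes named by rule, 20 kept their call when each of the 4 arrays was left out in turn, among them Gpr141b, Rasgrp3, Gcsam, Cd36, Xcr1, Snx22, Tlr3, Hpgd, Lipo3 and Cd209e, and none changed sign. Without Batf3 KO replicate 2, 20 of the 42 lost their call, and 12 did so without Batf3 KO replicate 3. Calls that held in 1 of the 4 fits were those of Clec9a, Plpp1, Septin3, 1700009J07Rik, Ptger2, Cd209d, F13a1 and Axl. The total called ran from 28 without Batf3 KO replicate 2 and 35 without Batf3 KO replicate 3 to 85 without WT replicate 2, and the number of cDC1 genes called lower was 9 without either Batf3 KO array. The arrays were also split into a higher and a lower set by their 75th percentile signals within each group. Each set thus held 1 array of either genotype by construction. With that set as a block 235 genes were called, 128 of them higher and 107 lower. Within the higher set and the lower set, Gpr141b differed by -5.03 and -3.93, Xcr1 by -3.98 and -2.48, Clec9a by -1.17 and -0.85, and Hpgd by 2.87 and 2.74.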

How the data were processed

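RNA was measured on 15 Affymetrix arrays of sorted mouse bone marrow cells, 2 per CDP group and 3 per Zbtb46-GFP+ group of WT, Batf3 KO and Id2 KO. The deposited values are intensities: linear probe set signals, made by the authors with Affymetrix Expression Console and RMA, per the submitters' processing notes, without versions or settings. RMA sets the arrays processed together to one distribution, so a scale that differs between arrays, as for replicate 1 of each Zbtb46-GFP+ group, is not removed here; these 3 arrays were left out of the fit and log2 values of the others taken.

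Of 28853 probe sets, 21789 had 1 gene symbol, 1621 had several and 5443 were not in the annotation; the probe set with the highest mean was kept for each of 19938 genes, of which 748 lie on X or Y by the RefSeq table and 82 were not placed. A linear model of 6 group means was fitted on 12 arrays with limma 3.58.1 in R 4.3.3 (6 residual degrees of freedom), tests were two-sided and p-values adjusted by Benjamini-Hochberg across every gene; a gene was called at an adjusted p under 0.05, and genes on X and Y were then left out. The procedure was tested on simulated data. The number of arrays limits the precision.

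The genes named are Batf3 and 12 regulators, the 20 lower and the higher called genes with the largest difference and non-overlapping arrays, up to 4 called members of each list (or the 2 largest where none was called), and up to 5 per direction for CDPs and the interaction; the remaining lower genes, list members below the threshold and genes near Batf3 were named after their values were seen. The genes, the 26 lists and the comparison were chosen with earlier results of these data known. Alternatives were other array sets, each array left out, other scalings, probe set filters, blocks and variance priors.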

Additional observations from a re-analysis of the deposited data

Results flagged for a closer look

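The difference between Batf3 KO and WT was not the same in Zbtb46-GFP+ cells and CDPs for 19 genes, by limma's test of the interaction with Benjamini-Hochberg adjustment. The interaction, on the log2 scale and negative where the Zbtb46-GFP+ difference is the more negative, was -4.71 for Gpr141b, -3.73 for Rasgrp3, -3.58 for Cd36, -3.57 for Gcsam and -3.33 for Snx22. It was -3.16 for Xcr1, -2.9 for Ifi205, -2.79 for Batf3, -2.32 for both Tlr3 and BC028528, and -2.06 for Fgd6. It was -1.97 for Ppt1, -1.82 for Fcrla, -1.69 for Gatm, -1.67 for Tubb2a and -1.5 for Shtn1. The positive values were 1.2 for Tnfsf8, 1.69 for Cd209e and 2.29 for Hpgd. For Ifi205 the CDP difference was positive (2.33) and called, while for the other 18 the Zbtb46-GFP+ difference was the called one.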

How the results depend on the processing

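With 2 arrays a side, the counts moved with the choice of arrays and spread. The 60 genes called in Zbtb46-GFP+ cells became 30 with only the arrays compared, 28 with all 15 arrays and a term for replicate 1, 0 with all 15 and no term (10 at an unadjusted p under 0.05), 112 after quantile normalization and 235 with the array set as a block; leaving out each array gave 28 to 85. The 16 cDC1 genes called lower became 10 with the replicate 1 term, 0 with all 15 arrays and no term, and 9 to 17 with an array left out. The 5 called in CDPs became 0 with all 15 arrays and no term (2 unadjusted), 8 after quantile normalization, 21 with the array set block and 2 to 4 with an array left out. The 19 interaction calls became 12 with only the arrays compared, 0 with all 15 arrays and no term (3 unadjusted), 8 with the term, 41 with the array set block, and 7 to 37 with an array left out. The lone array of a group was then assumed to vary like the others. The array set block moved the higher genes from 18 of 60 to 128 of 235. The cause of these moves was not tested. The remaining alternatives (75th percentile centring, a filter on dim probe sets, every probe set, a variance trend, X and Y left out first) kept these counts within 1.5 times.

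Same-numbered arrays deviated together in CDPs (residual correlation 0.683) and in opposite directions in Zbtb46-GFP+ cells (-0.554), so the replicate numbers may pair the arrays in CDPs and be crossed in Zbtb46-GFP+ cells. With the replicate number as a block, 80 genes were called in Zbtb46-GFP+ cells, 6 in CDPs and 21 in the interaction. The crossed pairing of the Zbtb46-GFP+ arrays is the array set block, with 235 calls.

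None of the 42 called genes named by rule changed sign under the alternatives run for it: 15, or 14 for Ifi202b and Itln1, which the filter on dim probe sets left out. Many of these could not change a sign. Leaving out an array could not, as the arrays of these genes did not overlap, and the blocks kept the differences as they were. Among genes not called, the range with each array left out crossed 0 for Irf8 (-0.1708 to 0.0682), Kit (-0.128 to 0.1911), Flt3 (-0.5636 to 0.369, with 0.151 without Batf3 KO replicate 3) and Gadd45b (-0.202 to 0.9189), and Kit became -0.017 with 75th percentile centring.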
